A study of Mus musculus with 30 samples.

Results

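The transcripts described here are those of the mouse mitochondrial genome: every gene that the count tables place on chromosome MT, 37 of 48709 genes, made up of 13 protein-coding genes, 2 ribosomal RNA (rRNA) genes and 22 transfer RNA (tRNA) genes. They were counted in 30 RNA sequencing libraries from brain, kidney, liver, quadriceps femoris muscle and spleen, with 3 libraries of wild-type (WT) C57BL/6 mice and 3 of Ctcf+/- mice per tissue. All mice were adults. The Ctcf+/- animals carry 1 working allele of Ctcf, the gene of a DNA-binding protein that organises chromatin, and the labels name no promoter, Cre or other allele. The labels number the libraries 1 to 3 in each group and do not say whether a number marks the same mouse in different tissues, so the p-values below measure the spread between libraries. The study was set up to compare tissues for an effect of losing 1 Ctcf allele, and the mitochondrial transcripts are compared between tissues and between genotypes in the same way.

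Mammalian mitochondria keep a small circular genome whose genes lie almost end to end and have no introns. Each strand is transcribed as a long precursor that is cut mainly at the tRNAs, which punctuate the mRNAs and rRNAs; the heavy-strand promoter drives most genes, and the light strand encodes mt-Nd6 and a minority of the tRNAs. The mRNAs encode core subunits of the respiratory chain complexes I, III and IV and of ATP synthase, while the other subunits, and all factors that copy, transcribe and process the mitochondrial genome, come from nuclear genes. Because the complexes are most abundant in tissues that rely on oxidative metabolism, such as muscle and kidney, mitochondrial RNA is usually a large part of the RNA of those tissues.

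The letters of a few sequences bear on every level given below, because the count of a fragment requires that it was placed at 1 position only. On chromosome 1 of GRCm38, from 24611535 to 24616197 on the minus strand, the annotation lists 7 pseudogenes (Gm28439, Gm10222, Gm28438, Gm28437, Gm10925, Gm28661 and Gm29216) that copy a stretch of the mitochondrial genome from inside mt-Co1 to inside mt-Nd4. Over the aligned bases, the copy had 0 differences from mt-Co2 (681 bases), mt-Atp6 (678 bases), mt-Co3 (783 bases), mt-Nd4l (294 bases) and the first 876 bases of mt-Nd4. It had 1 difference from mt-Nd3 over 345 bases, T3C, in the base that ends the first codon (positions are counted from 1 at the 5′ end of the mitochondrial gene, the mitochondrial base comes first). In mt-Co1, the gene at 5328 to 6872 of chromosome MT, the copy begins at base 1054 with the differences T1056A, C1057T, A1059G, A1060G, C1062A and A1066T and has none from there to the gene's end. The pairs below show both edges in the sequence of GENCODE release M21 (GRCm38), 60 bases from the first aligned base, with differing bases in capitals.
mt-Co1: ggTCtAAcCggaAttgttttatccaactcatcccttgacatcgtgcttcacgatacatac
Gm29216: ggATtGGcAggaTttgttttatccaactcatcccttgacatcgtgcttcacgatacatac
mt-Nd3: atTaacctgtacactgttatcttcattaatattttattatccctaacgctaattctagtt
Gm28438: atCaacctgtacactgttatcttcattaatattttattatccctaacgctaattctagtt
Genes also share bases with each other: mt-Atp8 and mt-Atp6 overlap by 43 bases, mt-Nd5 and mt-Nd6, on opposite strands, by 14, and mt-Nd4l and mt-Nd4 by 7. The counting did not use the strand, so sense and antisense RNA over mt-Nd5, mt-Nd6 and the light-strand tRNAs cannot be told apart.

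Library totals ran from 49819907 to 131645999 counted fragments, and no pair of libraries agreed within sampling noise. Marker genes of the labelled tissue were present in every group. In spleen, summed kidney markers were 10.9 to 21.6 CPM (counts scaled to equal library totals) in Ctcf+/- against at most 0.4 CPM in WT, and summed erythroid markers ranged from 14653 to 71793 CPM in WT and from 20439 to 62008 CPM in Ctcf+/-. Liver markers in spleen ran the other way, with 30.9 to 35.7 CPM in WT and at most 0.28 in Ctcf+/-, and pancreas markers in spleen reached 155 CPM in WT and 1131 CPM in Ctcf+/-. In muscle, summed adipocyte markers were 115 to 309 CPM in Ctcf+/- and 20.7 to 61.8 CPM in WT, and kidney markers were 8.41 to 63.9 CPM in WT and 0.10 to 4.89 CPM in Ctcf+/-. The part of these other cells in the results was not tested, and in whole tissue fewer cells of a type and less RNA per cell cannot be told apart. Ctcf itself stood in Ctcf+/- at 61.6% to 68.1% of its WT level over the 5 tissues, with groups that did not overlap except in spleen. Even so, edgeR's quasi-likelihood test called Ctcf for genotype only in brain (adjusted p = 0.0259). Elsewhere its adjusted p ran from 0.107 (kidney) to 0.914 (spleen). A missing call in those tissues therefore does not show that a gene was unchanged. RNAs that lack a poly(A) tail (5 genes) summed to 0.1 to 5.1 CPM. The labels name no step that selects poly(A) RNA or removes rRNA.

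The 37 mitochondrial genes took the largest share of all counts in muscle and kidney and the smallest in spleen. Muscle stood at 9.07% ± 1.21 (SD, n = 6, range 7.48% to 10.4%), kidney at 8.37% ± 0.729 (7.12% to 9.09%), brain at 5.79% ± 0.685 (4.60% to 6.51%), liver at 4.50% ± 0.440 (3.85% to 5.21%) and spleen at 2.63% ± 0.377 (2.16% to 3.12%). The ranges of muscle and kidney overlapped, as did those of brain and liver, while spleen lay below all other libraries. The 13 mRNAs made up most of each share, from 2.44% ± 0.342 of all counts in spleen to 8.82% ± 1.19 in muscle.

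**Figure D1:**
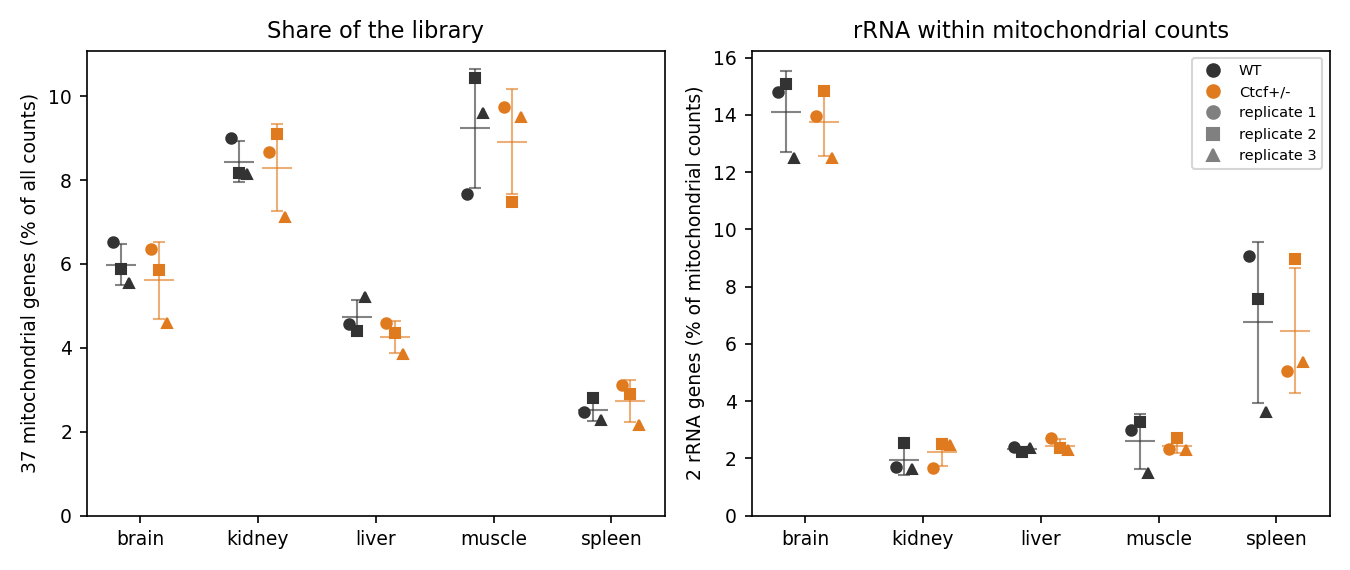
Share of all counts taken by the 37 mitochondrial genes (left, percent) and share of mitochondrial counts taken by the 2 rRNA genes (right, percent), for each of the 30 libraries by tissue and genotype; bars give the mean and SD of 3 libraries. Muscle and kidney lie highest on the left, brain and spleen on the right, and the genotypes overlap in every tissue.

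The genotypes overlapped in this share in every tissue. In brain the WT libraries stood at 6.51%, 5.88% and 5.55%, and the Ctcf+/- libraries at 6.37%, 5.86% and 4.60%. Liver gave 4.57%, 4.40% and 5.21% in WT against 4.59%, 4.36% and 3.85% in Ctcf+/-, and kidney 8.999%, 8.17% and 8.15% against 8.66%, 9.09% and 7.12%. In these 3 tissues the lowest of the 6 libraries was the Ctcf+/- library numbered 3. Muscle gave 7.66%, 10.4% and 9.61% in WT against 9.75%, 7.48% and 9.51% in Ctcf+/-, and spleen 2.47%, 2.81% and 2.29% against 3.12%, 2.90% and 2.16%. Spleen, too, had its lowest value in the Ctcf+/- library numbered 3, whereas in muscle that library was in the middle of the range. A share summed over the genes has no test here.

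Among the mRNAs, mt-Co1, the catalytic core of complex IV, had the highest level per length in every tissue. Levels are given in FPKM, the CPM per kilobase of gene. mt-Co1 reached 22551 ± 2315 (SD, n = 6) in kidney and 22252 ± 2837 in muscle, 11807 ± 892 in brain, 11085 ± 1701 in liver and 7463 ± 1343 in spleen. It was followed in all 5 tissues by mt-Cytb, the only mitochondrial subunit of complex III, from 3643 ± 574 FPKM in spleen to 14492 ± 1891 in muscle. The lengths used include the copied bases, 492 of the 1545 of mt-Co1 and 876 of the 1378 of mt-Nd4, so the levels of these mRNAs are lower than those of their unshared bases. Taken over its unshared bases alone, the counts of mt-Nd4 gave means from 3068 FPKM in spleen to 14837 in muscle. Those means lay above mt-Nd1 in every tissue, and above mt-Cytb in brain (8787 against 8443) and muscle (14837 against 14492). The ranks of mt-Cytb, mt-Nd1 and mt-Nd4 therefore hold for whole lengths only.

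The complex I mRNAs came next. mt-Nd1, whose protein sits where the membrane arm of complex I meets the quinone site, was the third mRNA by whole length in each tissue. It ran from 2761 ± 558 FPKM in spleen to 13363 ± 1471 in muscle. mt-Nd2, a proton-pumping subunit, ranged from 1623 ± 218 in spleen to 8129 ± 1363 in muscle. By whole length, mt-Nd4 (1118 ± 241 in spleen, 5405 ± 678 in muscle), mt-Nd6 (2045 ± 345 in liver, 5595 ± 456 in muscle) and mt-Nd5 (963 ± 223 in spleen, 3037 ± 854 in muscle) were the lower members of the complex I set. mt-Nd5 was the lowest of these 7 mRNAs in every tissue. The order of mt-Nd2, mt-Nd4 and mt-Nd6 differed between tissues: in spleen mt-Nd6 had a higher mean than mt-Nd2, with overlapping ranges (1396 to 3358 against 1326 to 1928 FPKM).

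Relative to the summed counts of these 7 mRNAs, the tissues differed modestly. mt-Co1 made up 36.9% in brain, 39.1% in liver and in muscle, 42.7% in kidney and 47.2% in spleen, as means of 6 libraries. mt-Nd5 made up 8.54% in brain and 5.22% in liver, the highest and the lowest of its means. mt-Cytb ranged from 17.1% in spleen to 22.4% in liver.

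**Figure D2:**
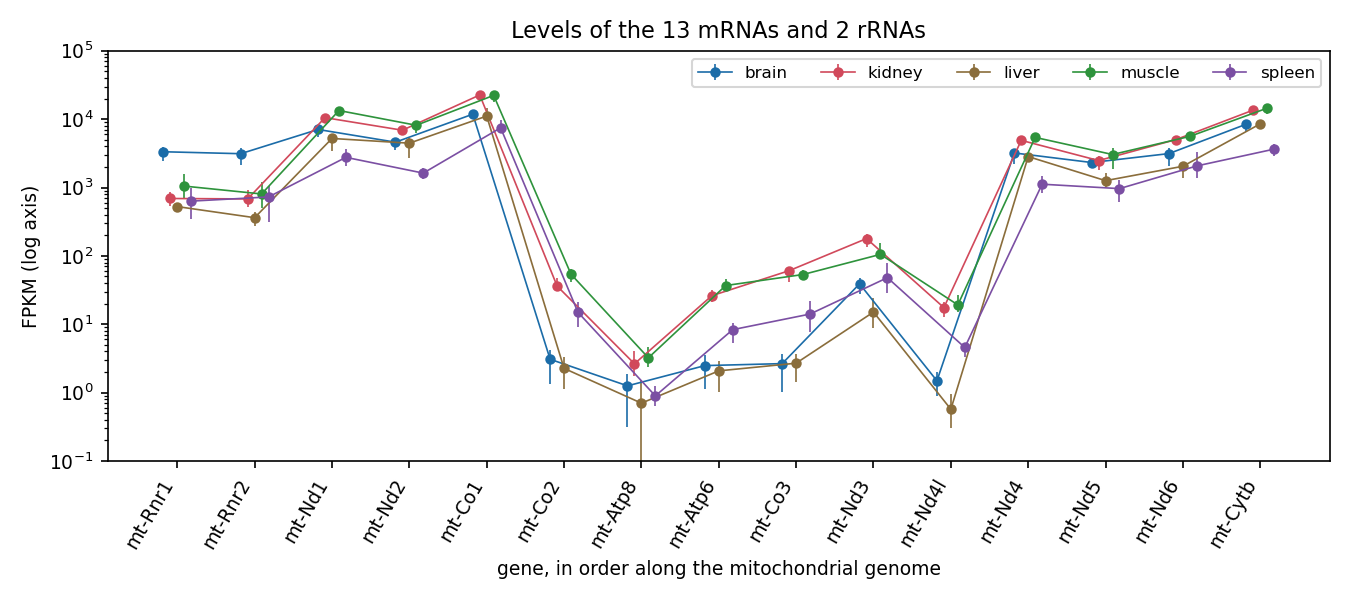
Mean level (FPKM, log axis) of the 2 rRNAs and 13 mRNAs in the order of the genes along the mitochondrial genome, by tissue; bars span the lowest to the highest of 6 libraries, and a bar that reaches the lower edge of the plot includes a library at 0. All tissues drop between mt-Co1 and mt-Nd4, over the genes of the copied stretch, and brain lies highest at the rRNAs.

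The 6 mRNA genes inside the copied stretch, mt-Co2, mt-Atp8, mt-Atp6, mt-Co3, mt-Nd3 and mt-Nd4l, held almost none of the counts. Together they took 0.0343% ± 0.00552 of the mitochondrial counts in brain, 0.0237% ± 0.00679 in liver, 0.164% ± 0.0259 in muscle, 0.171% ± 0.0398 in spleen and 0.190% ± 0.0206 in kidney (n = 6 each). These genes encode the other complex IV core subunits (mt-Co2, mt-Co3), both mitochondrial subunits of ATP synthase and 2 complex I subunits, proteins that are needed in step with mt-Co1 and mt-Cytb. Fragments that fit the mitochondrial gene and its chromosome 1 copy equally well were not counted, per the file headers' options, so these levels describe the few fragments that were placed uniquely and not the amount of RNA.

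Within that remainder, the levels were far from even across tissues. mt-Co2 stood at 53.9 ± 8.53 FPKM in muscle, 36.2 ± 6.74 in kidney, 14.9 ± 4.66 in spleen, 3.07 ± 1.12 in brain and 2.26 ± 0.942 in liver. mt-Co3 stood at 60.8 ± 10.5 in kidney and 53.4 ± 5.44 in muscle against 2.66 ± 1.07 in brain, and mt-Atp6 at 36.8 ± 5.83 in muscle against 2.08 ± 0.926 in liver. Kidney and muscle libraries did not overlap with brain and liver libraries for any of these 3 genes. As a ratio, chosen after the values were seen and given without a test, mt-Co2 had 2.47 ± 0.575 counts per kilobase for each 1000 of mt-Co1 in muscle, 2.08 ± 0.849 in spleen and 1.61 ± 0.305 in kidney, but 0.258 ± 0.0856 in brain and 0.210 ± 0.0987 in liver.

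The chromosome 1 copies had the order of tissues of mt-Co2, mt-Atp6 and mt-Nd4l, whereas mt-Co3 and mt-Nd3, like the 6 genes summed (158 CPM in kidney and 147 CPM in muscle), were highest in kidney. The 7 copies summed to 264 ± 29.8 CPM in muscle, 206 ± 62.5 in kidney, 56.7 ± 14.9 in spleen, 15.03 ± 5.04 in brain and 12.3 ± 4.22 in liver. mt-Nd3, which differs from its copy near its start, had the highest level of the 6 genes in every tissue, from 15.1 ± 6.44 FPKM in liver to 179 ± 25.3 in kidney, while its copy Gm28438 had 0.25 CPM in liver and 6.68 CPM in kidney. Whether these uniquely placed fragments came from the mitochondrial or the nuclear copy cannot be told apart from counts.

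The rRNA counts stood out in brain. The labels name no step that selects poly(A) RNA or removes rRNA, and rRNA levels depend on such steps. The levels and ratios of the rRNAs here and below are therefore of counted fragments, not of amounts of rRNA, and the part of library preparation was not tested. mt-Rnr1 and mt-Rnr2, the RNAs of the small and the large mitochondrial ribosomal subunit, are cut from 1 precursor transcribed upstream of mt-Nd1 and can end at a terminator behind mt-Rnr2. mt-Rnr2 reached 3121 ± 615 FPKM in brain, against 804 ± 235 in muscle, 728 ± 292 in spleen, 680.5 ± 159.9 in kidney and 362 ± 60.6 in liver, and mt-Rnr1 reached 3334 ± 526 FPKM in brain and 526 ± 56.4 in liver. Both rRNAs together took 13.9% ± 1.19 of the mitochondrial counts in brain and 6.60% ± 2.26 in spleen, but 2.52% ± 0.631 in muscle, 2.39% ± 0.173 in liver and 2.09% ± 0.465 in kidney. The lowest brain library had 12.5%, and the highest library of another tissue, in spleen, had 9.07%.

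The ratio of mt-Rnr2 to mt-Nd1, genes on either side of that terminator, separated more pairs of tissues without overlap, 7 of 10, than any other of the 6 ratios examined. In counts per kilobase it was 0.439 ± 0.0393 in brain, 0.260 ± 0.0832 in spleen, 0.0700 ± 0.00776 in liver, 0.0647 ± 0.0144 in kidney and 0.0603 ± 0.0154 in muscle (SD, n = 6). On the log2 scale brain exceeded spleen by 0.83 (SE 0.22), and 7 of the 10 pairs of tissues differed by the two-sided exact permutation test with Benjamini-Hochberg adjustment over 60 comparisons, each of the 7 at adjusted p = 0.00565, the smallest value reached. The 6 brain libraries were above every other library. Liver, kidney and muscle could not be separated from each other, with adjusted exact p-values of 0.224 to 0.654. The spread in spleen was wide, from 0.131 in the WT library numbered 3 to 0.363 in the WT library numbered 2.

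The rRNAs also differed against each other. mt-Rnr1 had 1.47 ± 0.146 counts per kilobase for each of mt-Rnr2 in liver and 1.31 ± 0.0614 in muscle, 1.08 ± 0.0565 in brain, 1.02 ± 0.0599 in kidney and 0.894 ± 0.132 in spleen. Of the 10 pairs of tissues 7 differed (adjusted exact p of 0.0224 or less), and liver and spleen lay farthest apart, by 0.72 on the log2 scale (SE 0.10). Liver and muscle did not pass the test (difference 0.16, SE 0.06, adjusted exact p = 0.0633).

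**Figure D3:**
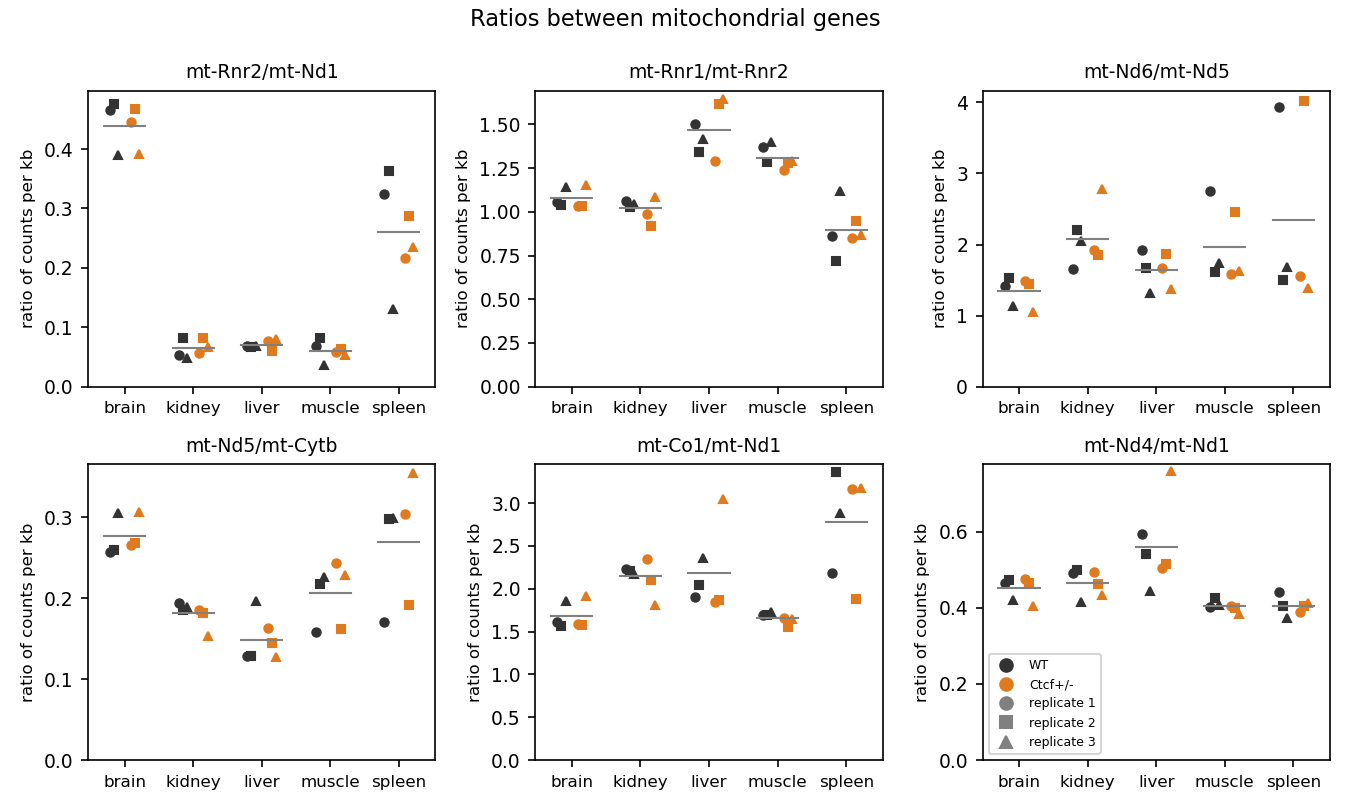
The 6 ratios between mitochondrial genes (counts per kilobase over counts per kilobase) in each of the 30 libraries by tissue and genotype, with the replicate number as the marker's shape; grey lines are means of 6 libraries. Brain and spleen lie highest for mt-Rnr2 over mt-Nd1, and the WT library numbered 1 and the Ctcf+/- library numbered 2 lie apart in muscle and spleen for mt-Nd6 over mt-Nd5.

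mt-Nd6, the complex I subunit mRNA of the light strand, was set against mt-Nd5, which ends inside it on the heavy strand. The ratio was lowest in brain, at 1.34 ± 0.198, and stood at 1.64 ± 0.246 in liver, 1.96 ± 0.511 in muscle, 2.08 ± 0.391 in kidney and 2.35 ± 1.27 in spleen. Only brain against kidney and brain against muscle passed the exact test, both at adjusted p = 0.00565, with log2 differences of -0.62 (SE 0.14) and -0.52 (SE 0.17). In spleen the WT library numbered 1 (3.93) and the Ctcf+/- library numbered 2 (4.02) were high, and the other 4 lay between 1.38 and 1.68. Muscle had the same 2 numbers on top, with 2.75 in WT 1 and 2.46 in Ctcf+/- 2 against 1.58 to 1.73 in the rest, and these were also the muscle libraries with the lowest mitochondrial share. Without them, the 4 remaining muscle values still lay above all brain values, of which the highest was 1.54.

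The neighbouring heavy-strand mRNAs mt-Nd5 and mt-Cytb gave ratios of 0.277 ± 0.0226 in brain and 0.270 ± 0.0719 in spleen, 0.206 ± 0.0363 in muscle, 0.182 ± 0.0145 in kidney and 0.148 ± 0.0275 in liver. Brain exceeded kidney, liver and muscle without overlap of the libraries, and 5 of 10 pairs passed. The libraries that were high for mt-Nd6 were low here: in spleen WT 1 stood at 0.171 and Ctcf+/- 2 at 0.192 against 0.297 to 0.354 in the other 4, and in muscle 0.159 and 0.162 against 0.217 to 0.243. mt-Nd5 enters both ratios.

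The remaining ratios compared mRNAs far apart on the heavy strand. mt-Co1 had 2.78 ± 0.605 counts per kilobase for each of mt-Nd1 in spleen, 2.18 ± 0.466 in liver, 2.14 ± 0.183 in kidney, 1.69 ± 0.154 in brain and 1.66 ± 0.0597 in muscle, and 6 of 10 pairs differed. Brain and muscle were not separated by this test (log2 difference 0.02, SE 0.06, adjusted exact p = 0.800). mt-Nd4 over mt-Nd1 was highest in liver, at 0.559 ± 0.109, and 0.404 in both muscle and spleen, with 7 of 10 pairs past the threshold. In liver a single library, Ctcf+/- 3, gave the top value of both ratios, 3.05 and 0.758, against 1.85 to 2.36 and 0.444 to 0.594 in the other 5.

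The libraries numbered 3 also stood apart in the make-up of the mitochondrial RNA in brain and liver. mt-Co1 took 34.3% (WT) and 35.2% (Ctcf+/-) of the mitochondrial counts in the brain libraries numbered 3 against 29.7% to 30.6% in the other 4, and 43.1% and 42.02% in the liver libraries numbered 3 against 34.3% to 36.6%. Brain rRNA took 12.5% in both libraries numbered 3 and 13.97% to 15.07% in the others. Since each number occurs once per genotype, these differences widen the spread within both groups. Their source was not tested.

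Within a tissue, the 7 mRNAs that are not wholly inside the copied stretch (mt-Nd1, mt-Nd2, mt-Nd5, mt-Nd6 and mt-Cytb, and mt-Co1 and mt-Nd4, which lie partly in it) rose and fell largely together from library to library. The median SD of their log2 levels over 6 libraries was 0.29 in spleen, 0.24 in liver, 0.21 in brain, 0.19 in muscle and 0.14 in kidney. After each library's own mean over the 7 genes was taken off, it was 0.17, 0.15, 0.09, 0.06 and 0.06 in the same order. The genes share a library's depth and scaling, so this describes the libraries and has no test.

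The tRNA genes are 59 to 75 bases long, and a fragment that also touches a neighbouring gene was not counted, so a tRNA's count is of fragments that lie within it or reach only into unannotated bases. All 22 tRNAs together took 0.173% ± 0.00781 of the mitochondrial counts in brain, 0.241% ± 0.0277 in muscle, 0.243% ± 0.0334 in liver, 0.253% ± 0.0577 in spleen and 0.376% ± 0.0252 in kidney. The sequences of those that the text turns on follow, from GENCODE release M21, written 5′ to 3′ as the tRNA reads (T for U), with the anticodon in capitals.
mt-Tp: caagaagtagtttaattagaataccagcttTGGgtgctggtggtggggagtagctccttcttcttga
mt-Te: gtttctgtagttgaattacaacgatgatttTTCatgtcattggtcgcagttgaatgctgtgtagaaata
mt-Tm: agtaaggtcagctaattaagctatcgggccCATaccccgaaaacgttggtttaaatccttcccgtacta
mt-Th: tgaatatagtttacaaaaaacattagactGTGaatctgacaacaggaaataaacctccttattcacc
mt-Ts2: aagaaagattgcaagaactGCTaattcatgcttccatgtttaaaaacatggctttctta
mt-Tl2: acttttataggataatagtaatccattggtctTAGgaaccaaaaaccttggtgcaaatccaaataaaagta
mt-Tp, the tRNA for proline, lies on the light strand at 15356 to 15422 and is followed by 877 bases without a gene, the control region. mt-Te (glutamate, 14071 to 14139) is a light-strand tRNA between mt-Nd6 and mt-Cytb, mt-Tm (methionine, 3845 to 3913) precedes mt-Nd2, and mt-Th (histidine), mt-Ts2 (serine) and mt-Tl2 (leucine) form a row from 11546 to 11741 between mt-Nd4 and mt-Nd5.

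mt-Tp had the highest count of all tRNAs in every tissue. It stood at 172 ± 19.4 CPM in kidney, 88.6 ± 11.2 in muscle, 73.6 ± 10.5 in liver, 47.3 ± 4.67 in brain and 28.1 ± 3.84 in spleen. Against mt-Cytb, which lies on its other side beyond mt-Tt, it had 11.1 ± 0.415 counts for each 1000 in kidney and 4.95 ± 0.566 in brain. These were the highest and lowest tissues. mt-Tn (asparagine) and mt-Tc (cysteine), which flank the 32 bases of the light-strand replication origin, came next in brain and liver, for example with 16.5 ± 2.34 and 10.3 ± 1.27 CPM in brain.

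The row mt-Th, mt-Ts2 and mt-Tl2 was high in kidney and low in brain and liver. mt-Tl2 had 33.2 ± 4.997 CPM in kidney, 15.8 ± 4.03 in muscle and 9.70 ± 5.03 in spleen, but 1.49 ± 1.23 in liver and 0.845 ± 0.479 in brain, and mt-Ts2 had 16.7 ± 3.16 in kidney against 0.448 ± 0.275 in brain. For each 1000 counts of mt-Nd5, the mRNA directly behind the row, mt-Tl2 had 7.65 ± 2.62 in kidney and 0.199 ± 0.111 in brain. The kidney libraries did not overlap with those of brain or liver for any of the 3 tRNAs.

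Other tRNAs had another order of tissues. mt-Te had 30.0 ± 6.26 CPM in muscle and 26.3 ± 5.95 in kidney, 5.05 ± 1.21 in brain and 4.77 ± 2.77 in liver, but 0.367 ± 0.132 in spleen, where its neighbours mt-Nd6 and mt-Cytb were well covered. mt-Tm was highest in brain, at 5.77 ± 1.28 CPM, followed by liver at 2.74 ± 0.775, kidney at 0.813 ± 0.297 and muscle at 0.246 ± 0.0997, and spleen had 0 to 9 counts per library. mt-Ta (alanine) was highest in brain as well, at 1.73 ± 0.286 CPM against 0.425 ± 0.116 in liver. mt-Td, mt-Tk and mt-Ts1, all next to or inside the region between mt-Co1 and mt-Atp8, had at most 2 counts in any library, and mt-Tf, the first gene behind the control region, had at most 6. mt-Td, mt-Tk and mt-Ts1, like mt-Tg and mt-Tr, lie within the span that is copied on chromosome 1. The bases between the pseudogenes were not compared, so the part of the copy in the counts of these tRNAs was not tested.

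**Figure D4:**
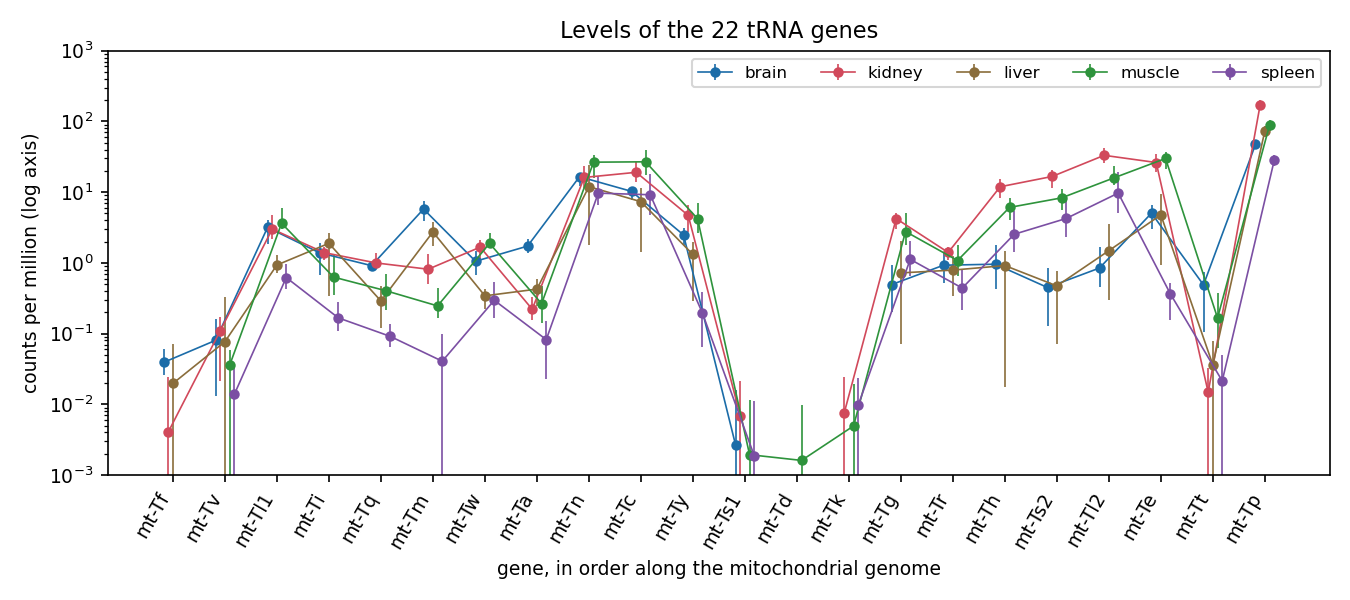
Mean level (CPM, log axis) of the 22 tRNA genes in the order of the genes along the mitochondrial genome, by tissue; bars span the lowest to the highest of 6 libraries, and points at 0 are not drawn. mt-Tp is the highest in every tissue, kidney lies highest at mt-Th, mt-Ts2 and mt-Tl2, and spleen lies lowest at mt-Te.

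Across the 15 WT libraries, all 32 mitochondrial genes that could be tested differed between tissues in edgeR's quasi-likelihood test. The background was as high, since 98.0% of all 22933 genes tested passed, so the count says nothing particular about them.

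Between the genotypes, no mitochondrial gene passed the threshold in any tissue. With adjustment over all genes, edgeR's quasi-likelihood test called 0 of 32 mitochondrial genes in brain (0.0157% of all genes tested were called), 0 of 32 in kidney (0.0211%), 0 of 31 in liver (0.0193%), 0 of 32 in muscle (0.0249%) and 0 of 28 in spleen (0.242%). At an unadjusted p under 0.05 there were 1 in brain (mt-Tp), 3 in liver (mt-Nd3, mt-Tm and mt-Tl2) and 0 elsewhere, where 2.96% (brain), 6.44% (kidney), 4.56% (liver), 6.45% (muscle) and 3.52% (spleen) of all genes reached it. DESeq2 called mt-Nd3 in liver and no other mitochondrial gene in a single tissue. Its calls there took up 0.468% of all genes, against 0.0193% with edgeR. A shared effect over all 30 libraries was called for 0 of 33 mitochondrial genes (0.194% of all genes), and an effect that differs between tissues for 0 of 33 (0.758%), with 0 (5.91% of all genes) and 3 (mt-Nd3, mt-Tm and mt-Tv; 6.66%) at an unadjusted p under 0.05.

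**Figure D5:**
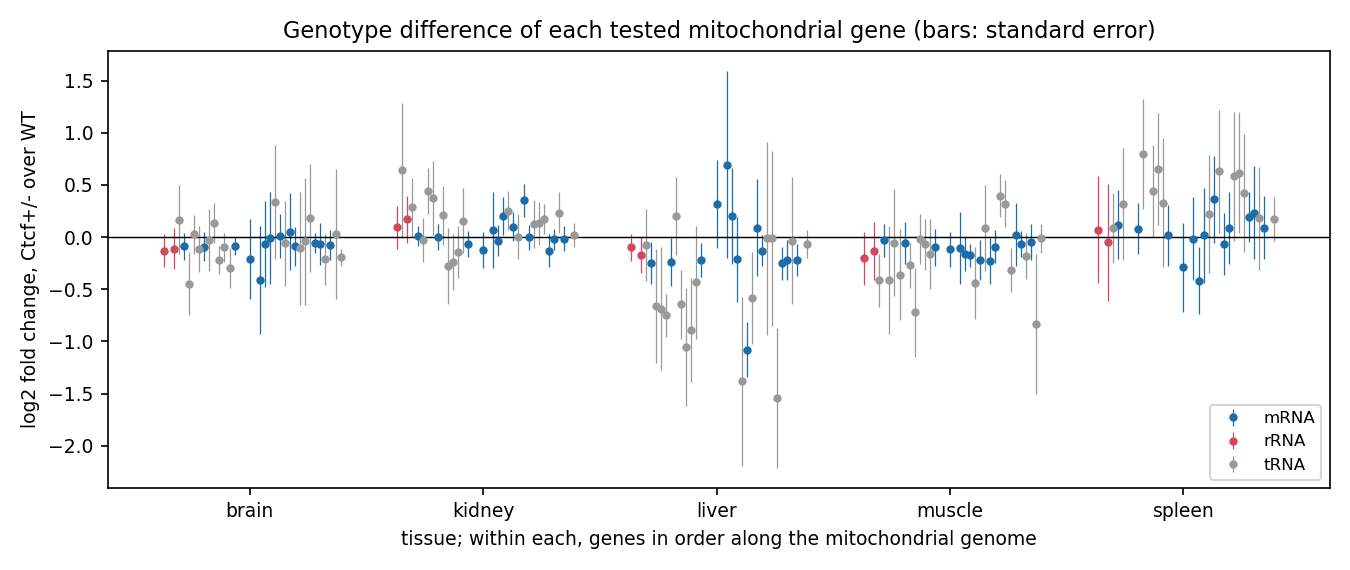
Log2 fold change of each tested mitochondrial gene, Ctcf+/- over WT, with its standard error, by tissue and in the order of the genes; colours mark mRNAs, rRNAs and tRNAs. The tRNAs of liver lie mostly below 0 and those of spleen above 0, and none passed the adjusted threshold.

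None of the 7 mRNAs that are not wholly inside the copied stretch passed the test, and only in liver did their median keep its sign whichever library was left out. In brain they had log2 fold changes from -0.09 to -0.05 (median -0.09), in kidney from -0.13 to 0.01 (median -0.01), in muscle from -0.10 to 0.02 (median -0.05) and in liver from -0.25 to -0.13 (median -0.22), and in spleen from 0.02 to 0.23 (median 0.09). Over all genes tested the medians were between -0.01 and 0.00. In liver and brain all 7 were on the low side of 0 and in spleen all 7 on the high side, but the 7 moved together from library to library and are not independent of each other. Without the Ctcf+/- library numbered 3, 6 of 7 in brain were above 0 (median 0.06), and the liver median was -0.10, with all 7 below 0. In spleen 6 of 7 were below 0 without the Ctcf+/- library numbered 2 (median -0.14) and 5 of 7 without the WT library numbered 3 (median -0.02). The medians of kidney and muscle also changed sign, at 0.04 in kidney without Ctcf+/- 3 and 0.02 without WT 1, and in muscle at 0.04 without WT 2 or without Ctcf+/- 2 and 0.00 without WT 3. The tRNAs had wider values, with a median of -0.61 over 16 tested in liver and 0.42 over 13 tested in spleen, at low counts and with none called. The spleen median of the tRNAs was -0.12 without Ctcf+/- 2 and 0.24 without WT 3, and the liver median was -0.25 without Ctcf+/- 3 and -0.30 without WT 2.

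Groups that did not overlap were few in each tissue. The mitochondrial genes move together from library to library, so these counts do not set them apart from the shares of all genes. Of the tested mitochondrial genes, 0 of 32 in brain had groups that did not overlap (7.86% of all genes), 2 of 32 in kidney (11.1%), 4 of 31 in liver (8.52%), 0 of 32 in muscle (11.3%) and 0 of 28 in spleen (5.81%). The 4 in liver, all lower in Ctcf+/-, were mt-Tm, mt-Ta, mt-Nd3 and mt-Cytb, and the 2 in kidney, both higher, were mt-Tq and mt-Nd4l.

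The mRNA with the smallest p in liver was mt-Nd3, a small core subunit of complex I. It had 7.66, 8.36 and 4.92 CPM in the WT libraries and 3.47, 4.07 and 3.02 CPM in the Ctcf+/- libraries, on 170 to 536 counts. The groups did not overlap, and the log2 fold change was -1.08 (SE 0.26) with edgeR's unadjusted p = 0.00319 and adjusted p = 0.619. DESeq2 gave -1.09 with adjusted p = 0.0275, and over all 14 alternatives the log2 fold change ran from -1.32 to -0.87 and the adjusted p from 0.0275 to 0.99994. mt-Nd3 lies in the copied stretch, so these are uniquely placed fragments. The groups of mt-Co1, partly inside the stretch, overlapped, whereas those of mt-Cytb, outside it, did not and were also lower in Ctcf+/-.

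In the other tissues the smallest p among the mRNAs was farther from the threshold. In kidney it belonged to mt-Nd4l, with 3.81, 4.75 and 5.07 CPM in WT and 5.83, 6.29 and 5.45 CPM in Ctcf+/- (log2 fold change 0.35, SE 0.16, edgeR's unadjusted p = 0.0533 and adjusted p = 0.786). In brain mt-Co1 had a log2 fold change of -0.09 (SE 0.08), in muscle mt-Co3 had -0.17 (SE 0.11) and in spleen mt-Atp6 had -0.42 (SE 0.32), with edgeR's adjusted p-values of 0.890 in muscle and 0.99997 or more in the others. mt-Nd4l, mt-Co3 and mt-Atp6 belong to the copied stretch.

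No ratio between mitochondrial genes passed the test for genotype. Of the 30 comparisons (6 ratios in 5 tissues), 1 had groups that did not overlap, mt-Co1 over mt-Nd1 in muscle, with 1.70, 1.69 and 1.72 in WT and 1.66, 1.55 and 1.65 in Ctcf+/-, a log2 difference of -0.07. Its exact two-sided p was 0.1, the smallest that 3 against 3 libraries allow, and the adjusted p was 1. With this number of libraries no ratio could pass the threshold.

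The nuclear genes that serve the mitochondrial genome or its products were examined as 2 lists. One held 40 genes of its maintenance, transcription and RNA processing. The other, the partner list, held 18 genes: citrate synthase and nuclear subunits of the respiratory complexes, complex II and ATP synthase included. In every tissue edgeR called 0 of 40 and 0 of 18 for genotype. At an unadjusted p under 0.05 there was 1 of 40, Top1mt in liver (log2 fold change 0.35, adjusted p = 0.797), and 0 of 18. In spleen all 18 genes of the partner list had negative log2 fold changes (median -0.08) and in muscle 16 of 18 (median -0.16), beside medians of 0.00 and -0.01 over all genes. The spleen median turned to 0.06 without WT 1, 0.05 without Ctcf+/- 3 and 0.00 without Ctcf+/- 1, while in muscle it ran from -0.23 to -0.08 without each library in turn. The 2 lists were chosen with earlier results of these data known.

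Tfam, the packaging and transcription factor of mitochondrial DNA, ran from 8.27 ± 0.47 FPKM in brain to 17.0 ± 1.58 in spleen, so it was highest where the mitochondrial share was lowest. Polrmt, the mitochondrial RNA polymerase, ranged from 4.60 ± 0.41 FPKM in muscle to 8.32 ± 0.39 in kidney. Lrpprc and Slirp, partners that stabilise mitochondrial mRNAs, had their highest levels in kidney, at 13.5 ± 0.54 and 12.1 ± 1.32 FPKM. Their genotype log2 fold changes lay between -0.21 (Polrmt in muscle) and 0.09 (Polrmt in brain). Ppargc1a, a coactivator of mitochondrial biogenesis, had 18.7, 87.1 and 17.8 CPM in the WT muscle libraries and 17.9, 17.9 and 15.4 CPM in the Ctcf+/- ones. Only WT library 2 stood apart, and it was also the muscle library with the highest mitochondrial share. The log2 fold change was -1.29 (SE 0.57) in muscle, with edgeR's adjusted p = 0.777, or -0.13 without WT 2, and between -0.20 and 0.13 in the other tissues.

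The summed FPKM of the 7 mRNAs that are not wholly inside the copied stretch was set against that of the 18 nuclear genes of the partner list. Mitochondrial over nuclear, the ratio was 18.7 ± 2.07 in brain, 16.3 ± 2.43 in spleen, 15.1 ± 1.65 in liver, 14.2 ± 2.66 in muscle and 12.5 ± 1.93 in kidney (SD, n = 6). The 18 nuclear genes themselves rose from 1208 ± 140 FPKM in spleen to 5333 ± 429 in kidney, and the 7 mitochondrial mRNAs from 19640.5 ± 2810.5 in spleen to 72273 ± 9353 in muscle. Both sums differed more between tissues than their ratio did. The ranges of neighbouring tissues in this order overlapped, and WT and Ctcf+/- libraries overlapped in each tissue. The lengths of mt-Co1 and mt-Nd4 include their copied bases here too, so the sum is lower than it would be per unshared base. As a score over the members, the ratio has no test.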

How the data were processed

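Total RNA of mouse tissues was sequenced, and the authors deposited 1 table of raw fragment counts per tissue, 6 libraries each. Per the file headers, the counts were made with featureCounts 1.5.0-p3 on paired fragments over exons of Ensembl release 86 (GRCm38), without strand and without the options that count multi-mapped fragments or fragments over several genes. Alignments came from IRFinder per the file headers, and the submitters' processing notes name STAR.

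From these counts, CPM and FPKM were computed over all 48709 genes. Each tissue was fitted with edgeR 4.0.16 (quasi-likelihood test, filterByExpr, TMM scaling, R 4.3.3) on all genes, with Benjamini-Hochberg adjustment and a call at 0.05. Of the 37 genes, 4 (mt-Tf, mt-Td, mt-Tk and mt-Ts1) passed the filter in no fit of a tissue. Tested on simulated data, the fits recovered 98%, 84%, 56%, 73% and 21% of genes changed 2-fold in brain, kidney, liver, muscle and spleen, and 85% to 100% of those changed 4-fold. The simulation gave every gene of a tissue the same dispersion and changed only genes above a minimum level. These rates therefore do not cover the low levels of many tRNAs, or genes with a wider spread. Ratios were compared with exact permutation tests (SciPy 1.17.1). Nuclear copies were found with blastn 2.17.0 in GENCODE M21 transcripts, whose coordinates matched those of the files for all 37 genes. DESeq2 1.42.0, other scalings and filters, and fits without single libraries were alternatives.

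Same-numbered libraries deviated together in brain (correlations of 0.29, 0.51 and 0.65) and kidney (0.30, 0.21 and 0.21), and not in all pairs of liver, muscle and spleen. The main fits and the exact tests did not pair libraries by number in any tissue, brain and kidney included. The exact tests between tissues took the 6 libraries of a tissue as independent. Where same-numbered libraries deviate together, their p-values can be too small. A block for the number was an alternative.

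The genes, lists and ratios were chosen with earlier results of these data known. The fold changes named singly are those of genes called and otherwise of the mRNA with the smallest p per tissue, and Tfam, Polrmt, Lrpprc, Slirp and Ppargc1a were named in every case; other names were chosen after their values were seen.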

Additional observations from a re-analysis of the deposited data

Results flagged for a closer look

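mt-Tm, the tRNA for methionine, had genotype differences of opposite direction in 2 tissues. In liver it was lower in every Ctcf+/- library (1.74 to 2.46 CPM) than in every WT library (3.05 to 3.79 CPM). In spleen it was higher in every Ctcf+/- library, with 9, 7 and 3 counts against 2, 0 and 0 in WT, too few to enter that tissue's fit. The test of an effect that differs between tissues gave an adjusted p of 0.324 with edgeR and of 0.0164 with DESeq2, and over the other alternatives, 7 in all with DESeq2, it ran from 0.325 to 1.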

How the results depend on the processing

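The count of 0 mitochondrial genes called for genotype held in each tissue under another scaling, other filters, the fit of all libraries, and without each library in turn. DESeq2 gave 1 call among 31 in liver (mt-Nd3, with 0.468% of all genes called). For an effect that differs between tissues it gave 1 among 33 (mt-Tm, with 3.03% of all genes called), a count that does not set these genes apart. With the replicate number as a block the count was 0 in all 5 tissues and over all libraries. For the ratios this setting could not change the difference, since its mean over same-numbered libraries equals the difference of the group means. The share of all counts moved by more than 1 SD in brain with the 13 mRNAs alone (5.01%), in kidney against nuclear counts (9.13%), and in liver and muscle without the 10 most abundant nuclear genes (5.75% and 12.3%). With WT or Ctcf+/- libraries alone, 0 pairs of tissues could pass for each of the 6 ratios, since 3 against 3 libraries allow no exact p below 0.1. Leaving out 1 replicate number at a time (4 against 4, chosen after seeing the data, smallest exact p 0.0286) gave from 0 to 7 pairs for mt-Rnr2/mt-Nd1, mt-Rnr1/mt-Rnr2 and mt-Co1/mt-Nd1, 0 to 3 for mt-Nd6/mt-Nd5, 0 to 5 for mt-Nd5/mt-Cytb and 0 to 8 for mt-Nd4/mt-Nd1; the 0 arose without number 1 and without number 2. Linear ratios gave the same counts of pairs. Lengths without shared bases could not change them, because they scale a ratio alike in every library. Low counts limit the tRNAs and the 6 mRNA genes of the copied stretch, with as few as 0 in a library.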
